A study of Mus musculus with 2 samples.

Results

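The 10 genes that encode or join the parts of secreted antibody were followed through the parotid gland of control and irradiated (IR) mice: the heavy chain constant region genes Ighm, Ighd, Ighg3, Ighg1, Ighg2b, Ighg2c, Ighe and Igha, the kappa light chain constant gene Igkc, and Jchain. They were chosen by name from the 48825 features of the count tables, and all 10 are listed there. Their levels were read in B cells, in barcodes with at least 5 Jchain UMIs (unique molecular identifiers, 1 per captured transcript molecule), in epithelium and in the other cell classes. The data were single-cell RNA-seq of parotid glands of wild-type (WT) C3H mice. The control library came from mice without irradiation, and the IR library from mice that received 6 Gy a day to the head and neck on 5 days, 30 Gy in total, when 6 to 10 weeks old. Glands were collected 10 months after IR, at about 1 year of age, and cells of 2 female mice were pooled into 1 library per condition. With 1 library per condition there is no replicate, so no difference below has a replicate check, and every interval is a 95% interval that covers counting error only.

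A B cell makes IgM and IgD from the same rearranged locus, by splicing 1 variable exon to the Ighm or the Ighd exons. Activation can switch the locus to a downstream constant gene, which gives IgG, IgE or IgA. A plasma cell largely stops making the membrane receptor and devotes its RNA to secreted heavy and light chains. Jchain encodes the peptide that links IgM pentamers and IgA dimers, and only antibody that carries it is moved across glandular epithelium by the polymeric immunoglobulin receptor, encoded by Pigr. Salivary glands are known as a site of such plasma cells, and IgA is the main antibody of saliva.

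The heavy chain genes lie in 1 block on chromosome 12 of GRCm38, on the minus strand, in the order Ighm, Ighd, Ighg3, Ighg1, Ighg2b, Ighg2c, Ighe and Igha. Ighm spans 113418558 to 113422730 and Igha, at the other end, 113254830 to 113260236. Igkc lies on chromosome 6, from 70726435 to 70726966 on the plus strand, and Jchain on chromosome 5, from 88519809 to 88527891 on the minus strand (GENCODE M21). The 4 Ighg genes are near-identical in parts, so reads can be split between them. The reference genome carries the Ighg2c of C57BL/6 mice, where C3H mice carry Ighg2a, so values listed as Ighg2c or Ighg2b are uncertain.

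The deposited control matrix held 5550 barcodes with 22707876 UMIs, and the IR matrix held 7793 with 23890757 UMIs. After the filter (at least 200 genes, at most 5% mitochondrial UMIs), 3378 control and 5286 IR cells remained, with medians of 2908 and 2462 UMIs. The libraries shared 12 barcode sequences, 3 of them after the filter, and none of these had 5 or more Jchain UMIs. Clusters were made without the immunoglobulin genes and Jchain. The B cell cluster held all 7 of 7 B cell markers at least 2-fold above other cells, with 836 control and 829 IR cells once barcodes with 5 or more Jchain UMIs were set apart. RNA of acinar cells was present in B cells as well, where 7 acinar markers summed to 61840 CPM (the UMIs of a gene scaled to a common total of UMIs per class) in control B cells and 61600 CPM in IR B cells.

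Barcodes with at least 5 Jchain UMIs were few in both libraries and made up a larger share of the IR cells. There were 10 among 3378 control cells, 0.296% (exact binomial interval 0.142 to 0.544), and 52 among 5286 IR cells, 0.984% (0.736 to 1.29). The IR share was 3.32 times the control share (1.67 to 7.33). The order of the libraries was the same at every threshold read. At 20 or more Jchain UMIs there were 9 control and 33 IR barcodes, a ratio of shares of 2.34 (1.10 to 5.57), and at 100 or more there were 6 and 21, a ratio of 2.24 whose interval, 0.873 to 6.77, includes 1. At 1 or more UMI the shares were 1.87% and 2.33%, a ratio of 1.25 (0.914 to 1.72). That lowest threshold also takes in cells that should lack the gene. Of T cells, 1.25% in control and 0.764% in IR had a Jchain UMI, at median depths of 3200 and 2497 UMIs. The T cells leave out barcodes with 5 or more Jchain UMIs, which the shares of all cells include. Just outside the threshold lay 5 IR barcodes and no control barcode with 4 Jchain UMIs, which held 0 to 29 Ighm UMIs, and just inside it 2 IR and 1 control barcode with 5, which held 5 to 38.

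**Figure D1:**
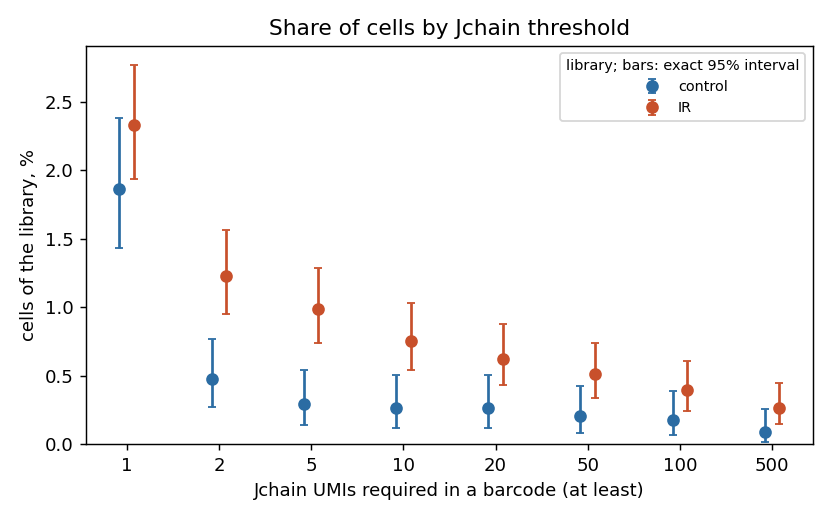
Share of the cells of each library (y axis, %) with at least the number of Jchain UMIs on the x axis, with exact 95% binomial intervals. The IR point is above the control point at every threshold, and the 2 intervals overlap at 1 UMI and from 20 UMIs upward, but not at 2, 5 or 10.

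Most of these barcodes carried Ighm. A barcode was given an isotype where it held at least 10 heavy chain UMIs, at least 80% of them on 1 gene. In the control library 8 of 9 such barcodes were Ighm (88.9%, 51.8 to 99.7) and 1 was Igha. In the IR library 41 of 45 were Ighm (91.1%, 78.8 to 97.5), 3 were Igha and 1 was Ighg1. Among the kept barcodes none was Ighd, Ighg3, Ighg2b, Ighg2c or Ighe in either library, and 1 IR barcode was mixed. The remaining 1 control and 6 IR barcodes held fewer than 10 heavy chain UMIs. The share of Ighm did not differ between the libraries beyond counting error. These counts cover kept barcodes only. Of 18 IR barcodes that the filter left out, 9 were Ighm, 2 Igha, 2 Ighg1, 1 Ighg2b and 1 Ighg2c. The other 3 held fewer than 10 heavy chain UMIs, and the 1 control barcode left out was Ighm.

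The Ighm barcodes covered a wide range of output. In the 8 control barcodes Ighm had 131, a median of 1160 and at most 3051 UMIs, beside 401, 5685 and 8245 UMIs of Igkc and 30, 320 and 820 of Jchain. In the 41 IR barcodes Ighm had 12, a median of 196 and at most 3725 UMIs, beside 0, 901 and 9773 of Igkc and 5, 93 and 2016 of Jchain. The ranges of the libraries overlap throughout, and the IR barcodes reach lower. Ighd, the membrane isotype of naive B cells, had 0 UMIs in all 10 control barcodes and 7 UMIs in the 52 IR barcodes together.

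The Igha barcodes, the isotype for which salivary glands are known, were few. The control barcode had 319 Igha, 454 Igkc and 85 Jchain UMIs. The 3 IR barcodes had 658, 47 and 10 Igha UMIs, with 3950, 179 and 99 of Igkc and 485, 40 and 13 of Jchain. Ighm had 0 UMIs in all 4 of them, so the isotypes were not mixed within these barcodes. The Ighg1 barcode of the IR library had 174 Ighg1, 371 Igkc and 13 Jchain UMIs, and held 174 of the 177 Ighg1 UMIs found in these barcodes.

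**Figure D2:**
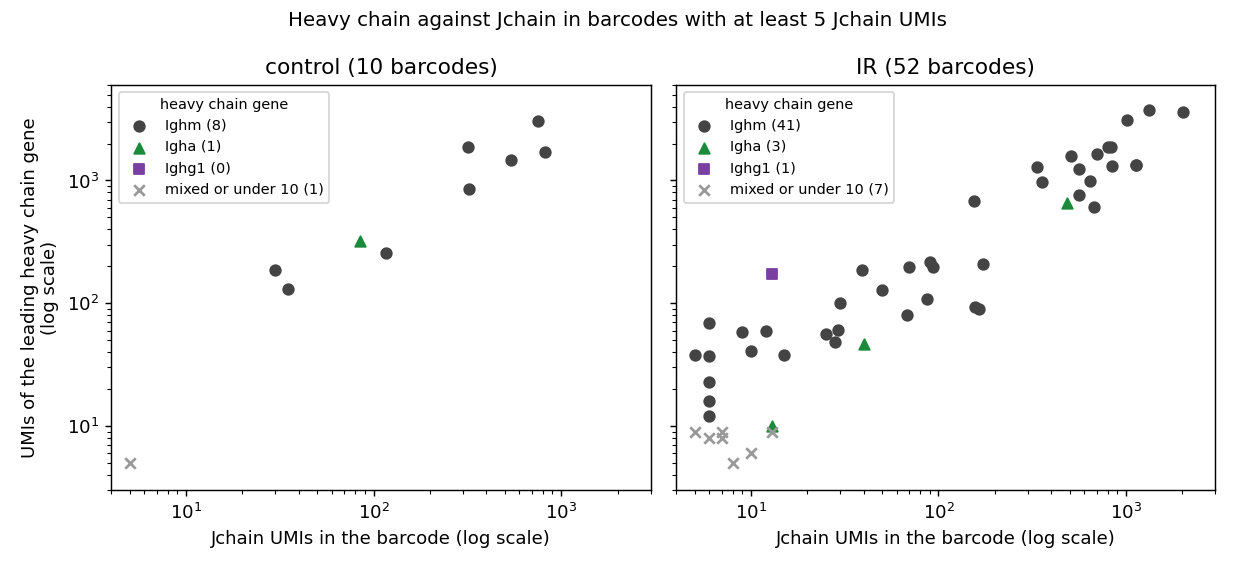
Each point is a barcode with at least 5 Jchain UMIs, with its Jchain UMIs on the x axis and the UMIs of its leading heavy chain gene on the y axis (both log scales), 10 barcodes in the control panel and 52 in the IR panel. Ighm barcodes (circles) run along the whole range, the 4 Igha barcodes (triangles) and the Ighg1 barcode (square) lie among them, and crosses mark barcodes that were mixed or held under 10 heavy chain UMIs.

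Most light chain UMIs were kappa, and lambda outnumbered kappa in 3 IR barcodes and no control barcode. Igkc had 37056 UMIs in the control barcodes and 105847 in the IR barcodes, and the lambda constant genes Iglc1, Iglc2 and Iglc3 together 95 and 5041. The lambda share of light chain UMIs was 0.256% (0.207 to 0.313) in control and 4.55% (4.42 to 4.67) in IR. A single IR barcode held 3647 of the 5041 lambda UMIs, 3640 of them on Iglc2, with 0 Igkc, 990 Ighm and 641 Jchain UMIs. Without it the IR share was 1.30%. The other 2 held 64 Iglc1 UMIs with 0 of Igkc, beside 13 of Jchain, and 18 Iglc1 UMIs with 12 of Igkc, beside 6 of Jchain. A further IR barcode held 469 Iglc3 UMIs beside 6307 of Igkc.

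By their other genes the barcodes were of more than 1 kind. In 9 of 10 control and 32 of 52 IR barcodes the immunoglobulin genes and Jchain took at least 25% of all UMIs, with a median of 65.2% and 61.4%; this bound was set after the values were seen. Among those 32 IR barcodes Mzb1, a chaperone of antibody-secreting cells, had UMIs in 30, Xbp1, a transcription factor of secretory cells, in 25, Tnfrsf17, a survival receptor of plasma cells, in 14 and Sdc1, a plasma cell surface proteoglycan, in 13. In the 9 control barcodes these were 9, 8, 3 and 5. The plasma cell genes Prdm1 and Irf4 had UMIs in only 5 and 6 of the 32 IR barcodes. In the 9 control barcodes these were 1 and 0. Mzb1 was also found in 47.5% of control and 45.7% of IR B cells, and Xbp1 in 45.5% and 48.3% of epithelial cells. With the bound of 25% the share of cells was 2.27 times as high in IR (1.06 to 5.41), in place of 3.32.

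The other 20 IR barcodes fell into deep and shallow ones. In the 10 deepest, with 4590 to 24484 UMIs, Ighm had 8 to 210 and Jchain 5 to 173 UMIs, and the B cell genes Cd79a (receptor signalling chain) and Ms4a1 (CD20) had UMIs in all 10. Mki67, a proliferation gene, was seen in 7 of these 10. These genes were not limited to the deep barcodes. In the 32 IR barcodes at 25% or more, Cd79a, Ms4a1 and Mki67 had UMIs in 21, 13 and 4. In the 9 such control barcodes they had UMIs in 7, 2 and 1. The only control barcode below 25% had 3651 UMIs, with 1 UMI of S1pr2, a germinal centre receptor, 2 of Cd79a, 0 of Ms4a1, 5 of Jchain and 5 of Ighm. Among the shallow IR barcodes, 6 had similar depth and member counts, with 1057 to 1553 UMIs, 99 to 146 of Igkc, 0 to 9 of Ighm and 5 to 13 of Jchain. No control barcode had this make-up. The Igha barcode with 10 UMIs is among them, but it differs in other genes. It lay in the acinar cluster, with 221 genes and 0 UMIs of Mzb1, where the 6 reach up to 495 genes. What these 6 are was not tested.

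Summed over barcodes, Ighm and Igkc took a smaller part of the RNA in IR. Jchain, which chose these barcodes, did not, with 36421 CPM in control and 39919 CPM in IR. Ighm had 114902 CPM in control and 78462 CPM in IR, a ratio of 0.683 (0.667 to 0.699), and Igkc 446453 and 274927 CPM, a ratio of 0.616 (0.609 to 0.623). Both values rest on which barcodes enter: with only those at 25% or more immunoglobulin UMIs, the ratios were 0.975 and 0.880. A gene was read for fold only where its UMIs summed to 20 or more and each library had 1. Of the 4 members that passed this, none was at least 2-fold higher in IR and Igha was lower (0.485, from 1 control and 3 IR barcodes). Across all genes in these barcodes 45.9% were at least 2-fold higher and 3.17% at least 2-fold lower, so the background was far from even.

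The variable segments joined to these constant genes recurred. Counts of Ighv and Igkv features give, for each barcode, the leading segment as aligned to the reference, and 2 of them stood out once the values were seen. Igkv14-126 led in 5 of 7 control barcodes with an Igkv UMI (71.4%, 29.0 to 96.3) and in 14 of 34 IR barcodes (41.2%, 24.7 to 59.3). Ighv11-1 led in 4 of 6 control barcodes with an Ighv UMI and in 8 of 22 IR barcodes. In the barcodes led by Igkv14-126 there were 98 UMIs of it in control and 70 in IR, and 0 UMIs of any other Igkv segment. Per barcode it had 4 to 38 UMIs in control and 1 to 15 in IR. A barcode with only 1 Igkv UMI can show no other segment. All 19 barcodes led by Igkv14-126 were Ighm barcodes, with 25 to 832 Jchain UMIs. Where such a barcode also had an Ighv UMI, the leading segment was Ighv11-1 in 4 of 4 control and in 7 of 7 IR barcodes.

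B cells of the same libraries used neither segment to that extent. Igkv14-126 led in 0 of 43 control and 1 of 42 IR B cells with an Igkv UMI, and Ighv11-1 in 0 of 75 and 2 of 62 with an Ighv UMI. The upper limits of the B cell shares of Igkv14-126 were 8.22% and 12.6%. The segment was picked by its count in the Jchain barcodes, so these limits are no test against theirs. Barcodes of 1 pool of mice are not replicates either. B cells were instead spread over 24 leading Igkv segments in each library, none above 11.6% of the cells. As background, the pairing of an Ighv11 with an Igkv14 segment, like that of Ighv12 with Igkv4, is known from B-1 cells that bind phosphatidylcholine. The second pairing was seen in 1 IR barcode, from only 1 UMI of Ighv12-3 and 4 UMIs of Igkv4-91, beside 1246 Ighm, 4535 Igkc and 558 Jchain UMIs. Counts of segments come from 3' libraries, in which most molecules do not reach the variable exon, and a shared segment does not show a shared clone.

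**Figure D3:**
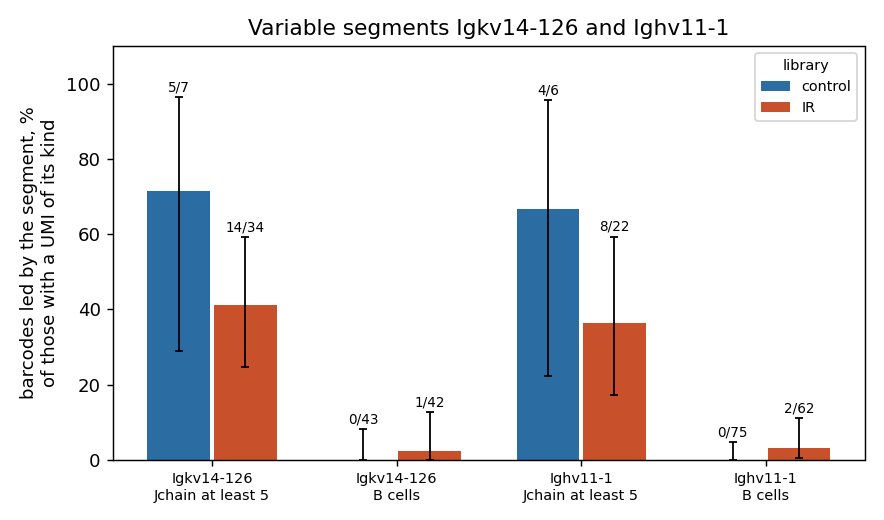
Share of barcodes led by Igkv14-126 or Ighv11-1 (y axis, % of the barcodes with at least 1 UMI of any Igkv or any Ighv segment), in barcodes with at least 5 Jchain UMIs and in B cells of each library; the counts stand above the bars and the lines are exact 95% binomial intervals. In both libraries the Jchain barcodes, from whose values these segments were picked, stand far above the B cells.

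The coding sequences of these segments are shown because the pairing rests on their identity, and because Ighv11-1 has a close copy, Ighv11-2. They are the germline sequences of the reference (C57BL/6, GRCm38, GENCODE M21), not sequences read from these mice. Ighv11-1 lies on chromosome 12 from 113981879 to 113982341, Ighv11-2 on chromosome 12 from 114048241 to 114048812 (both minus strand), and Igkv14-126 on chromosome 6 from 67896172 to 67896642 (plus strand). The last 300 of 353 coding bases are given. Capitals mark, in the Ighv segments, the 4 positions at which they differ. In Igkv14-126 they mark the bases from the conserved cysteine codon to the end. The third complementarity-determining region begins after that codon.
Ighv11-1: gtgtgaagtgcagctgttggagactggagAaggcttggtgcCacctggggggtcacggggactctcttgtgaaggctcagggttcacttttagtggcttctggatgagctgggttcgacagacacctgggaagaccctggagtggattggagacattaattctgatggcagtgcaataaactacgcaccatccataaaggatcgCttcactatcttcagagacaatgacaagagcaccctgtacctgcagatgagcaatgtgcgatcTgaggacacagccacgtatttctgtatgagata
Ighv11-2: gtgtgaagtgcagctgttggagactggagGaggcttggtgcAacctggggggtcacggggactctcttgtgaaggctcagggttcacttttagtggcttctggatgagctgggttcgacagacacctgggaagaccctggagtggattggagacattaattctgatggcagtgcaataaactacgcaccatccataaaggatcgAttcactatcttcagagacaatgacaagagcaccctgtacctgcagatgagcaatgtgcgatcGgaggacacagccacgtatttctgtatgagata
Igkv14-126: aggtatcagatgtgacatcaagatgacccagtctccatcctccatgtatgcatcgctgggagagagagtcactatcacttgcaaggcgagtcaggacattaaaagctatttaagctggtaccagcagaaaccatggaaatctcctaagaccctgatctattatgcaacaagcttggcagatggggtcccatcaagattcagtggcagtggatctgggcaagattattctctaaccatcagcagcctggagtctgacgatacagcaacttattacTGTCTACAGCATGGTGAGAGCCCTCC

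The 2 Ighv11 segments share 98.9% of their bases, so reads of C3H mice, whose own alleles may differ from the reference, can be split between them. Ighv11-2 had 1 UMI in the control and 1 in the IR barcodes with 5 or more Jchain UMIs, against 19 and 16 of Ighv11-1.

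In B cells the members read as a mostly unswitched population in both libraries. Each of the main members is given per cell first. Igkc had a median of 16 UMIs per cell in 836 control B cells (quartiles 10 and 25, highest 153) and of 16 in 829 IR B cells (9 and 24, highest 259). Ighm had a median of 3 in both (quartiles 2 and 6), with a highest cell of 88 in control and 239 in IR. Ighd had a median of 1 and upper quartile of 2 in both. The distributions of single cells overlap almost completely between the libraries.

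Summed and scaled, the same genes differed a little. Ighm had 1650 CPM in control and 2198 CPM in IR B cells, a ratio of 1.33 (1.28 to 1.39). Ighd, which is spliced from the same primary transcript as Ighm, had 609 and 544 CPM, a ratio of 0.892 (0.825 to 0.966), in the opposite direction. Ighd UMIs per Ighm UMI were 0.369 (0.347 to 0.393) in control and 0.247 (0.232 to 0.264) in IR B cells. Igkc had 6865 and 7682 CPM, a ratio of 1.12 (1.10 to 1.14), where the median of all genes was 1.08. Without the cell richest in each gene, the ratios of Ighm, Ighd and Igkc were 1.29, 0.890 and 1.11.

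Shares of B cells with both Ighm and Ighd depended on depth. They were 69.9% (66.6 to 73.0) in control and 60.8% (57.4 to 64.1) in IR, where median depths were 2538 and 2175 UMIs. With each cell thinned to 1000 UMIs, which left out 14 control and 24 IR cells, the shares were 29.9% (26.8 to 33.2) and 34.04% (30.8 to 37.4), in the opposite order and with overlapping intervals. No order of the libraries is read from this share. In T cells 0.916% of control and 0.591% of IR cells had both.

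Switched heavy chain genes were rare in B cells and were seen in a larger share of the IR cells. At least 1 UMI of Ighg3, Ighg1, Ighg2b, Ighg2c, Ighe or Igha was present in 36 of 836 control B cells, 4.31% (3.03 to 5.91), and in 66 of 829 IR B cells, 7.96% (6.21 to 10.0), a ratio of 1.85 (1.21 to 2.86). After thinning to 1000 UMIs the shares were 1.46% and 3.60%, a ratio of 2.47 (1.22 to 5.31), a level near that of 1 UMI. With at least 2 UMIs they were 1.32% and 3.14%, a ratio of 2.38 (1.14 to 5.35), but after thinning 3 control and 2 IR cells were left, a ratio of 0.681 (0.0569 to 5.94). Cells with at least 2 such UMIs and neither Ighm nor Ighd numbered 4 in control and 14 in IR, and 2 in each library after thinning, so at equal depth no difference was detectable for either of these stricter counts. In T cells the shares with a switched UMI were 0.999% and 0.243%, the opposite order, and in epithelium 0.594% and 1.43%.

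By gene, Ighg3, an IgG made in T-independent responses, had 33 UMIs in 25 control B cells and 41 UMIs in 30 IR B cells. Ighg2b had 15 UMIs in 5 control and 37 UMIs in 16 IR cells, a CPM ratio of 2.76 (1.48 to 5.40). Igha had 13 UMIs in 7 control and 47 in 15 IR cells, a ratio of 4.04 (2.15 to 8.14). Ighg1, the main IgG of T-dependent responses in mice, had 0 UMIs in control, a count that leaves room for up to 0.359% of the cells to carry a UMI, and 11 UMIs in 4 IR cells, 6 of them in 1 cell. Ighe, the IgE gene, had 0 UMIs in control and 1 in IR. Cells with 5 or more UMIs of a single switched gene were 1 in control, with Igha, and in IR 3 with Igha, 2 with Ighg2b, 1 with Ighg1 and 1 with Ighg3. Of the 7 members with enough UMIs to be read, 3 were at least 2-fold higher in IR B cells (Ighg2b, Igha and Jchain, the last from 18 and 33 UMIs) and none was at least 2-fold lower, where 4.22% of all genes read in B cells were at least 2-fold higher and 1.42% at least 2-fold lower. Jchain itself set the limit of this class, which took 4 IR and 0 control barcodes from the B cell cluster, so its value is only a description. Cells with a Jchain UMI were 1.79% of control and 2.65% of IR B cells, a ratio of 1.48 (0.733 to 3.07).

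Lambda light chain RNA was higher in IR B cells, while the share of cells with mostly lambda UMIs did not differ beyond counting error. Iglc1, Iglc2 and Iglc3 summed to 1602 UMIs beside 15922 of Igkc in control, 9.14% of light chain UMIs (8.72 to 9.58), and to 2814 beside 15952 in IR, 15.0% (14.5 to 15.5). A single IR cell held 676 of these UMIs, and without the highest cell of each library the shares were 8.37% and 11.8%. Iglc2 accounted for most of the difference, with 361 CPM in control and 897 CPM in IR, a ratio of 2.48 (2.29 to 2.70) and of 1.83 (1.67 to 2.01) without the richest cell. In T cells Iglc2 was higher in IR too, with 8 and 42 UMIs, a ratio of 2.75 (1.28 to 6.79). In epithelium it had 26 and 17 UMIs, a ratio of 0.874 (0.445 to 1.67). Among B cells with at least 5 light chain UMIs, at least 80% were lambda in 18 of 785 control cells, 2.29% (1.37 to 3.60), and in 16 of 776 IR cells, 2.06% (1.18 to 3.33). Those between 20% and 80% lambda numbered 70 in control and 116 in IR.

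**Figure D4:**
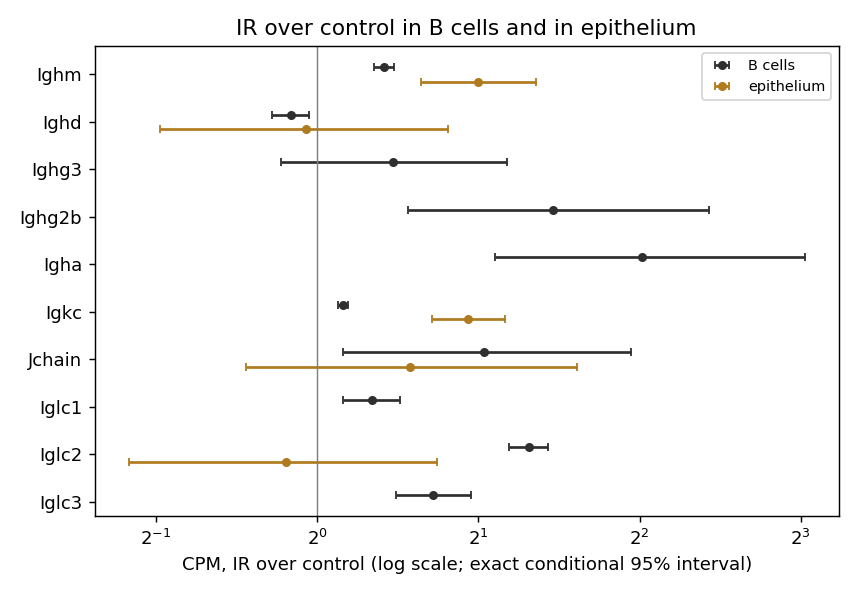
Ratio of IR to control CPM (x axis, log scale) for members and lambda genes whose UMIs in both libraries sum to 20 or more, in B cells and in epithelium, with exact conditional 95% intervals. In B cells Ighd lies below 1, and the points of Jchain, Iglc2, Ighg2b and Igha lie above 2, the interval of Jchain reaching down to 1.12; in epithelium Ighm and Igkc lie near 2.

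The genes that work with the antibody in B cells gave a background for these values. All 8 of 8 genes of the receptor complex and its co-receptors were read, and none was past 2-fold in either direction; their median ratio of IR to control was 1.22, where that of all genes was 1.08. Cd79a, the signalling chain of the receptor, had 2165 and 2388 CPM, and Cr2, the complement receptor CD21, 75.03 and 118.5 CPM, a ratio of 1.58 (1.30 to 1.93). Of 12 plasma cell genes 10 were read and 1 was at least 2-fold higher: Irf4, a transcription factor needed for plasma cells, with 27.6 and 55.9 CPM, a ratio of 2.02 (1.48 to 2.79). Of 8 germinal centre and class switch genes 5 were read and 2 were at least 2-fold higher. Bcl6, the transcription factor of germinal centre B cells, had 12 and 41 UMIs (ratio 3.82, 1.97 to 7.98). Gpr183, a receptor that guides activated B cells, had 95 and 237 UMIs (2.79, 2.19 to 3.57). Of all genes read in B cells 4.22% were at least 2-fold higher. Irf4, Bcl6 and Gpr183 were higher in IR T cells too. Their ratios there were 3.04 (1.54 to 6.67), 1.81 (1.20 to 2.79) and 2.16 (1.90 to 2.46). Tgfb1, a cytokine known for driving switching to IgA, had 455 and 377 CPM, a ratio of 0.828 (0.754 to 0.909).

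In epithelium the members were present at a low level, and 2 of them had more CPM in IR. Epithelium joined acinar cells, Etv1+ cells and intercalated and striated duct cells, 842 control and 837 IR cells with fewer than 5 Jchain UMIs. Igkc had 275 UMIs in control and 394 in IR, 25.1 and 48.1 CPM, a ratio of 1.92 (1.64 to 2.24). Ighm had 111 and 166 UMIs, 10.1 and 20.3 CPM, a ratio of 1.999 (1.56 to 2.57). Without the cell richest in each gene these ratios were 1.85 and 2.05. None of the 4 members read was past 2-fold, Ighm lying just below it; this count was between 1 and 3 under other limits on mitochondrial UMIs or genes, with all deposited barcodes, without integration, at a finer clustering, with no filter on low counts or without the highest doublet scores (Ighm ratio 2.93 in the last). By comparison, 5.2% of all genes in epithelium were at least 2-fold higher and 1.33% at least 2-fold lower.

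The scale matters for this comparison. Igkc UMIs were found in 15.8% (13.4 to 18.4) of control and 16.4% (13.9 to 19.1) of IR epithelial cells, so the share of cells did not differ beyond counting error, and the UMIs per cell were 0.327 and 0.471. After thinning to 1000 UMIs the shares for Igkc were 4.399% and 6.38%. Ighm UMIs were found in 5.94% and 8.72% of the cells, a ratio of 1.47 (1.01 to 2.15), and after thinning in 1.466% and 3.33%, a ratio of 2.27 (1.05 to 5.32). Etv1+ cells had a median of 24190 UMIs in control and 5617 in IR, and in them Igkc had 14.6 and 31.3 CPM but 0.419 and 0.565 UMIs per cell. In intercalated duct cells, where IR cells were the deeper ones (medians of 1282 and 4825 UMIs), the ratio of Igkc CPM was below 1, at 0.292 (0.158 to 0.524), from 35 and 19 UMIs. In acinar cells, of like depth (5158 and 5470 UMIs), it was 1.88 (1.49 to 2.39). Jchain had 17 and 19 UMIs in epithelium, in 1.90% and 1.79% of the cells. Igha had 1 UMI in control and 15 in IR, 14 of these in 8 Etv1+ cells with at most 3 UMIs each.

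Pigr, the receptor that carries antibody through epithelium, was at the same level in both libraries within counting error. It had 117 CPM in control and 116 CPM in IR epithelium, a ratio of 0.991 (0.910 to 1.08), and was found in 37.9% and 35.0% of the cells. Ccl28, a chemokine that draws IgA plasma cells to glands, had 22.4 and 17.0 CPM, a ratio of 0.758 (0.611 to 0.938). Of the 8 genes of transport and attraction 4 were read in epithelium and none was past 2-fold. Ccr10, the receptor for Ccl28, had 1 UMI in control and 2 UMIs in IR among the barcodes with 5 or more Jchain UMIs.

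Across classes the order of the members was steep, and low levels were found everywhere. Igkc had 446453 and 274927 CPM in the Jchain barcodes, 6865 and 7682 CPM in B cells and 617 and 353 CPM in dendritic cells, in control and IR. The cluster left unnamed, from which most Jchain barcodes were set apart, had 1003 and 1272 CPM of Igkc in its other cells. Of these 102 control and 280 IR cells, 45.1% and 36.1% had an Igkc UMI. In macrophages Igkc had 354 CPM in control and 310 CPM in IR, but 81 of the 131 control UMIs were in 1 cell. Without the richest cells the ratio of IR to control in macrophages was 1.72 in place of 0.876. It was 79.5 and 74.7 CPM in T cells and 97.0 and 489 CPM in endothelial and stromal cells. Among the epithelial classes it ran from 14.6 CPM in control Etv1+ cells to 220 CPM in IR striated duct cells, whose interval overlaps the 197 CPM of control. In the endothelial and stromal class 67 of the 157 IR UMIs were in 1 cell, and the ratio of IR to control was 5.04, or 5.40 without the richest cells. This class, which was not counted as epithelium, also passed 5 of 5 myoepithelial markers. The 7 B cell markers were all detected in T cells, at 32.6 CPM in control and 38.9 CPM in IR against 5173 and 5559 in B cells, and in epithelium at 12.2 and 17.2 CPM. Their part in these values was not tested.

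**Figure D5:**
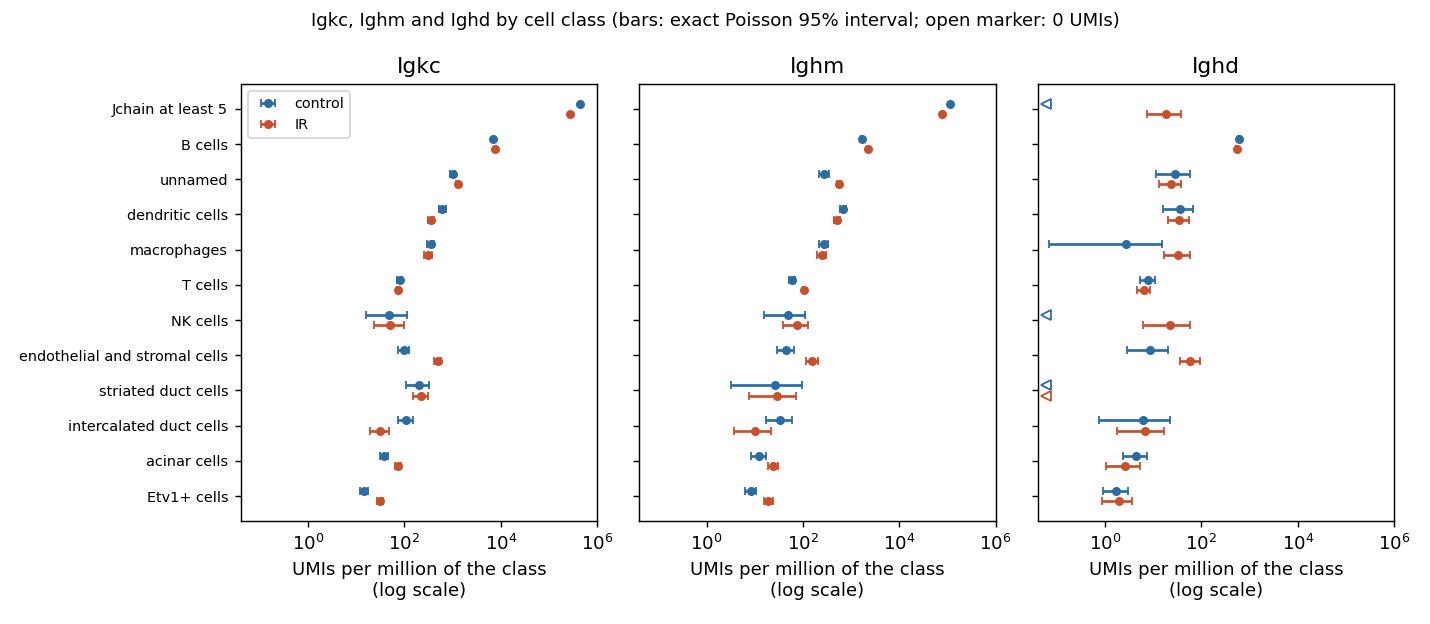
Igkc, Ighm and Ighd in CPM of each class (x axis, log scale) for the control and IR libraries, with exact Poisson 95% intervals; open markers stand for 0 UMIs. All 3 genes are far lower in T cells and epithelium than in B cells, and Ighd, unlike Igkc and Ighm, is lower in the Jchain barcodes than in B cells.

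The mix of members was not the same in all of the low classes. Ighm UMIs per Igkc UMI were 0.240 (0.232 to 0.249) in control and 0.286 (0.277 to 0.296) in IR B cells, and 0.257 and 0.285 in the Jchain barcodes. In T cells the ratio was 0.748 (0.629 to 0.888) in control and 1.41 (1.27 to 1.57) in IR, and in dendritic cells 1.11 (0.888 to 1.39) and 1.45 (1.20 to 1.76). In macrophages it was 0.763 (0.583 to 0.998) and 0.789 (0.583 to 1.06), and in Etv1+ cells 0.559 (0.403 to 0.769) and 0.608 (0.463 to 0.796). Acinar cells had 0.316 and 0.337, with intervals that include the B cell values. Those of intercalated and striated duct cells, from 2 to 11 Ighm UMIs, include them too. Ighm UMIs were found in 187 of 1201 control T cells (15.6%) and 554 of 2878 IR T cells (19.2%), or in 4.30% and 8.37% after thinning to 1000 UMIs, with at most 7 and 12 UMIs in a cell. Ighd was in 1.58% and 1.22% of T cells. The T cell, dendritic cell, macrophage and Etv1+ cell ratios lie outside the intervals of both B cells and Jchain barcodes in either library. Those of macrophages and dendritic cells lean on single cells. Without the cell richest in each gene, macrophages had 73 Ighm and 50 Igkc UMIs in control, and 75 and 78 in IR. In dendritic cells 1 cell held 67 of the 156 control Igkc UMIs, and 1 cell 48 of the 184 in IR. Of the 4 members read in T cells none was past 2-fold, where 5.65% of all genes read there were at least 2-fold higher and 1.38% at least 2-fold lower in IR.

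Genes whose level followed a member across classes were named by Pearson's r of log2(CPM + 1) over 23 points, each a class in a library with at least 20 cells. Points of 1 library share their depth and free RNA, so r is a description. The IR barcodes with at least 5 Jchain UMIs (52) are 1 of the points, and the 10 control ones are too few. Jchain chose that class, where it had 39919 CPM against 15.9 CPM in IR B cells. The r values of Jchain therefore rest on that choice and support nothing by themselves. For Ighm the closest genes outside the immunoglobulins were Gm20513 (r = 0.89), Tnfrsf13b, Pou2af1, Cd79b and Mzb1 (0.87). Ighd followed Fcmr, the IgM receptor (0.91), then, among others, Fcer2a, Bank1 and A630001G21Rik (0.85). Jchain followed Spcs2, a subunit of the signal peptidase (0.81), Rgs13, Spcs1, Txndc5 and Pdia4 (0.72), and Igha followed Txndc5, Serp1, Spcs2, Cecr2 and Rgs13, from 0.81 down to 0.69. For Igkc they were Pou2af1, Rgs13, Mzb1, Gm20513 and Cd79b, all at 0.87 to 0.88. The lists of Ighm and Igkc share Gm20513, Pou2af1, Cd79b and Mzb1, and those of Jchain and Igha share Spcs2, Txndc5 and Rgs13. Igha, Igkc and Ighm were also far higher in the point that Jchain chose. They had 1865, 274927 and 78462 CPM there, against 22.6, 7682 and 2198 CPM in IR B cells. Their lists lean on that same point, so the shared genes support nothing by themselves.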

How the data were processed

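Parotid cells were captured with the 10x droplet chemistry. The deposited values are raw UMI counts for each gene in each barcode, unscaled. The submitters' processing notes name Cell Ranger 3.0.1, Seurat 3 and the build mm10. The step that told cells from empty droplets is not given in the sources used here. Per the labels, 1 library is control and 1 is IR, each of 2 pooled mice, so no test between conditions was possible and cells were not used as replicates.

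A barcode was kept when it had 200 genes or more and no more than 5% mitochondrial UMIs. Both libraries were joined by anchor integration and clustered in Seurat 5.3.0 (R 4.3.3; 2000 variable genes without immunoglobulin genes and Jchain, 30 components, resolution 0.3). Clusters were named where at least 3 fixed markers had 5 UMIs and 2 times the CPM of other cells. The cluster called endothelial and stromal cells passed 5 of 5 myoepithelial markers, and myoepithelial cells were not set apart from it. A cluster whose best list was that of cycling genes (4 of 4 passed) or of plasma cells was left unnamed, since these lists name no class here. The cluster so left, whose leading genes also include Gm1553, Scgb2b24 and Obp1b, with a median of 715.5 UMIs, held 9 of 10 control and 43 of 52 IR barcodes with at least 5 Jchain UMIs. Those barcodes formed a class of their own. Cells with at least 10% haemoglobin UMIs (30 control, 27 IR; bound set after seeing the data) were set aside. Names rebuilt here may differ from the study's. UMIs were summed per class and library, and CPM taken over all genes. Shares have Clopper-Pearson intervals, sums exact Poisson intervals and ratios exact conditional intervals (scipy, 95%). Intervals cover counting error only. UMIs are counted at 3' ends and do not scale with gene length. Where a count was 0, the limit is 3 counts.

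Scrublet called 0.947% of control and 0.0189% of IR cells as doublets, so in IR the caller did not work; no cell was removed, and the 6% of highest scores were left out as an alternative. Members, lists and thresholds were chosen with earlier results of these data known. Named genes were the members, the lambda genes, fixed lists of partner genes and the 5 most alike genes per member; Igkv14-126, Ighv11-1, Ighv12-3 and Igkv4-91 were singled out after values were seen. A gene was read for fold where it had 20 UMIs over both libraries and 1 in each. Of the features, 48349 had an identifier in GENCODE M21. On simulated counts with 100 genes raised and 100 lowered 4-fold, 100 and 97 were recovered past 2-fold in B cells (8719 genes) and 100 and 99 in epithelium (9532 genes), and 97.0% and 94.6% of intervals held the true ratio for unchanged genes. Of the unchanged genes 2.09% were past 2-fold in both. These counts were drawn from the same counting model that the intervals assume, without differences between cells. They therefore check the computation only and cannot show how often the intervals hold in these data. Some genes of the fixed lists and of the most alike genes are not reported here. Alternatives are listed in the closing section.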

Additional observations from a re-analysis of the deposited data

Results flagged for a closer look

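Several members differed between IR and control by different amounts or in opposite directions in different cell classes, each with a 95% interval of counting error that excludes 1. With 1 library per condition these differences between classes were not tested. The ratio of IR to control CPM of Ighm was 1.33 in B cells, 1.77 in T cells, 2.005 in acinar cells, 2.33 in Etv1+ cells and 3.46 in endothelial and stromal cells, but 0.683 in the Jchain barcodes and 0.748 in dendritic cells. For Igkc it was 1.12 in B cells, 1.88 in acinar cells, 2.14 in Etv1+ cells and 5.04 in endothelial and stromal cells, but 0.616 in the Jchain barcodes, 0.571 in dendritic cells and 0.292 in intercalated duct cells. For Ighd it was 0.892 in B cells and 6.83, from 5 and 19 UMIs, in endothelial and stromal cells. For Igha it was 4.04 in B cells and 0.485 in the Jchain barcodes, the latter from 1 control and 3 IR barcodes.

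Barcodes that the filter left out also held Jchain. In the IR library 18 of 70 barcodes with at least 5 Jchain UMIs were left out, 12 for fewer than 200 genes and 6 for mitochondrial UMIs, against 1 of 11 in the control library. The 18 had 5 to 107 Jchain UMIs and 512 to 2807 UMIs in all. By the same isotype rule 9 were Ighm, 2 Igha, 2 Ighg1, 1 Ighg2b and 1 Ighg2c, and 3 held under 10 heavy chain UMIs.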

How the results depend on the processing

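With 1 library per condition no replicate could be left out, and no value has a replicate check. No paired analysis was possible because each condition has 1 library and the results come from no test between samples. Depth limits the shares of cells with a UMI. Over 22 settings and 27 results there were 300 alternative values: 229 stayed within the 95% interval of the reported value (for counts of genes, within 1.5 times), 71 moved, and no ratio of IR to control whose interval excludes 1 changed direction; shares were not compared between libraries in this count. The cause of a shift was not tested unless the setting itself removes cells or UMIs.

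The number of barcodes with 5 or more Jchain UMIs was 6 in control and 32 in IR with at least 500 genes; 16 in control at a threshold of 2; 33 in IR at 20; and 32 in IR with at least 25% immunoglobulin UMIs. The percent Ighm in control was 100 with at least 500 genes and without the 6% highest Scrublet scores.

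In the Jchain barcodes the ratio of IR to control was, for Ighm and Igkc, 0.803 and 0.730 at a threshold of 2, 0.797 and 0.719 at 10, and 0.893 and 0.804 at 20. It was 0.458 and 0.413 with CPM without immunoglobulin genes, 0.975 and 0.880 with at least 25% immunoglobulin UMIs, and 0.760 and 0.601 without the cell richest in immunoglobulin UMIs. For Igkc it was 0.607 with no mitochondrial limit and 0.608 with at least 500 genes.

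In epithelium the ratio of Igkc was 2.64 with at least 500 genes, and that of Ighm 2.825 without integration and 2.93 without the highest Scrublet scores. The members past 2-fold, 0 as reported, numbered 2 with up to 10% mitochondrial UMIs, with all deposited barcodes and without the highest Scrublet scores; 3 with no mitochondrial limit, with at least 500 genes and without integration; and 1 at resolution 0.8 and with no filter on low counts. Genes past 2-fold numbered 566 in Jchain barcodes at a threshold of 10 and 370 at 20. With no filter on low counts they numbered 2034 in B cells, 2303 in Jchain barcodes and 2379 in epithelium.

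The percent of B cells with Ighm and Ighd, in control and IR, was 62.2 and 55.96 with up to 10% mitochondrial UMIs, 57.5 and 48.3 with no limit, 57.8 and 49.2 with all deposited barcodes, 38.6 and 31.2 with at least 2 UMIs, and 29.9 and 34.04 when thinned to 1000 UMIs, where the order of the libraries turned. The percent with a switched gene was 1.32 and 3.14 with at least 2 UMIs and 1.46 and 3.60 when thinned.

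The lambda percent in B cells, in control and IR, was 8.20 and 13.97 with up to 10% mitochondrial UMIs, 7.94 and 13.1 with no limit, 7.95 and 13.06 with all deposited barcodes, and 8.51 and 12.4 with cells chosen by a marker gate. In control it was 8.345 at a Jchain threshold of 2. In IR it was 11.9 when clusters were made with the immunoglobulin genes and 11.8 without the richest cell. In Jchain barcodes it was 0.687 in control at a threshold of 2 and 0.178 without the richest cell; in IR it was 4.89 with at least 500 genes, 4.397 with all deposited barcodes and 4.94 without the barcode richest in immunoglobulin UMIs. Ighm UMIs per Igkc UMI in T cells were 1.58 in IR with up to 10% mitochondrial UMIs, 0.589 in control with no limit, and 0.551 in control and 1.075 in IR with all deposited barcodes. The settings with at least 25% immunoglobulin UMIs and without the richest cell were chosen after seeing the data.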
